A study of Mus musculus with 16 samples.

Results

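The subunit genes of oxidative phosphorylation, nuclear and mitochondrial, were taken by symbol from a table of read counts over 55414 mouse genes in 16 libraries. The names sought were Ndufa, Ndufb, Ndufc, Ndufs and Ndufv followed by a number, Sdha to Sdhd, Uqcr, Cox4 to Cox8, Atp5 and the mitochondrially encoded mt-Nd, mt-Co, mt-Atp and mt-Cytb. A total of 96 protein-coding genes matched, and the 82 with a mean of at least 1 CPM (counts per 1000000 counts of the library) over the 16 libraries were kept. They comprised 75 nuclear genes, of which 37 belong to complex I, 4 to complex II, 8 to complex III, 9 to complex IV and 17 to complex V by symbol, and 7 mitochondrially encoded genes. Ndufa4 was counted with complex I by its symbol, although its protein is now regarded as a subunit of complex IV. Cox4i1 and Cox4i2, Cyc1, Cycs and Ndufab1 were not reached by these names and were looked at separately.

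Oxidative phosphorylation is the last stage of respiration in the inner mitochondrial membrane. Complexes I to IV pass electrons from NADH and succinate to oxygen while complexes I, III and IV pump protons, and complex V, the ATP synthase, uses the proton gradient to make ATP. Its subunits are encoded by both genomes of the cell: the mitochondrial DNA carries core subunits of complexes I, III, IV and V, and the nuclear chromosomes carry all other subunits, complex II entirely. Paneth cells, the antimicrobial secretory cells at the base of the small intestinal crypts, are known for their high output of α-defensins and lysozyme.

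The libraries were made from Paneth cells sorted from the small intestine of C57BL/6J mice. Each mouse received PBS or DEX (not spelled out in the sources used here, but the common short form of dexamethasone, a glucocorticoid drug), then PBS or TNF 1 h later, and was sampled 3 h after that. The groups carry the names of both injections, PBS+PBS and DEX+PBS without TNF and PBS+TNF and DEX+TNF with it, and hold 4 libraries each, labelled as biological replicates. They allow the effect of TNF to be asked with and without DEX, the effect of DEX with and without TNF, and the difference between the TNF effects (the interaction). These are bulk RNA samples, in which fewer cells of a type and less RNA per cell cannot be told apart.

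Library totals ranged from 7286307 to 15832111 counts, and the α-defensin (Defa) genes took 32.2% to 59.3% of them. The study reports many multi-mapped reads for these highly similar genes, so this share is uncertain. All 12 Paneth cell markers were detected, at a summed level of 426000 to 636400 CPM. The scaling factors (trimmed mean of M values, TMM) ran from 0.418 in PBS+TNF 1 and 0.503 in PBS+PBS 4 to 1.498 in DEX+TNF 4. Several libraries stood apart. DEX+TNF 4 held 1149 CPM of 8 tuft cell markers (at most 234 CPM elsewhere) and 1726 CPM of 14 enterocyte markers (110 to 831 CPM elsewhere). The libraries labelled DEX+TNF 3 and DEX+TNF 4 had 28.3 and 41.0 normalized CPM of Nfkbia, the inhibitor gene that NF-κB itself induces. DEX+TNF 1 and 2 had 330 and 382, and DEX+PBS 19.5 to 27.2. Nos2, which rose after TNF without DEX, stood at 103, 106, 0.306 and 20.2 normalized CPM in DEX+TNF 1 to 4. In DEX+PBS it was at most 2.60. A direction drawn from DEX+TNF thus averages over libraries that differ widely in these genes, and the reason was not tested.

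Of the 13 protein genes of the mitochondrial genome, 7 reached 1 CPM and 6 did not, and these 6 lie side by side. mt-Co2, mt-Atp8, mt-Atp6, mt-Co3 and mt-Nd4l had 0 counts in all 16 libraries together, and mt-Nd3 had 6. The segment chrM:6394-11042 (GRCm39), which spans them, also lies in the nuclear genome at chr1:24650616-24655265 on the minus strand. In the 2 stretches that make up the match, 3435 and 1222 bases long, a single base differed, T9461C in mt-Nd3 (the mitochondrial base first, the position on the mitochondrial genome, then the base of the nuclear copy), and the stretches are joined with a length difference of 1 base. The sequences below show how closely the segment and its copy match. A read inside either stretch matches both places exactly unless it covers the differing base. The gene mt-Atp8, chrM:7766-7969 on the plus strand, encodes a small subunit of the ATP synthase and is identical over its whole length to its copy at chr1:24653690-24653893, minus strand:
mt-Atp8: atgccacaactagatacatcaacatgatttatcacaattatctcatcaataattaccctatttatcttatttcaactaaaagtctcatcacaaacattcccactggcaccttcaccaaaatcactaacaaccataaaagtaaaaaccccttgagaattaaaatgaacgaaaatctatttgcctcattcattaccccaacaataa
copy of mt-Atp8 on chromosome 1: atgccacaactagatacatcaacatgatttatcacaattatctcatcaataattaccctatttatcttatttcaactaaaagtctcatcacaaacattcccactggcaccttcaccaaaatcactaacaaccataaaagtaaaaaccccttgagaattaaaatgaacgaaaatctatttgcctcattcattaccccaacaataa
The first 60 bases of mt-Nd3, chrM:9459-9518, hold the differing base in capitals, with the copy at chr1:24652141-24652200, minus strand:
mt-Nd3: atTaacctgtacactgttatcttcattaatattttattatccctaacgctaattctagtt
copy of mt-Nd3 on chromosome 1: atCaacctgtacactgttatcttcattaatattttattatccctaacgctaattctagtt
The match begins inside mt-Co1. The 30 bases before its start and the 30 bases after it, chrM:6364-6423 against chr1:24655236-24655295, minus strand, are shown with the bases that differ in capitals:
mt-Co1 at the start of the match: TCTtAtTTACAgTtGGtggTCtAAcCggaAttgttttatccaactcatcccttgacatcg
chromosome 1 at the start of the match: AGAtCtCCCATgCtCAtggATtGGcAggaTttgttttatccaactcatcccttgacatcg

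Between 98.9% and 100% of the 75-base windows of the 6 genes had an exact copy in the nuclear genome. The share was 61.5% for mt-Nd4, which has 876 of its 1378 bases inside the segment, 39.8% for mt-Co1, with 479 of 1545 bases inside, 5.71% for mt-Nd2, 1.66% for mt-Nd5 and 0 for mt-Nd1, mt-Nd6 and mt-Cytb. Over 7 of the 8 genes annotated on the chromosome 1 copy (the other was not in the table) there were 54 counts in all, at most 20 in a library. Few counts of this segment thus stood in the table under either genome. How the counting treated reads with several places is not given in the sources used here, and its part in the missing counts was not tested. The low or absent counts of mt-Co2, mt-Co3, mt-Atp6, mt-Atp8, mt-Nd3 and mt-Nd4l are therefore not read as their expression, and the levels of mt-Co1 and mt-Nd4, which lie partly in the segment, are uncertain.

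**Figure D1:**
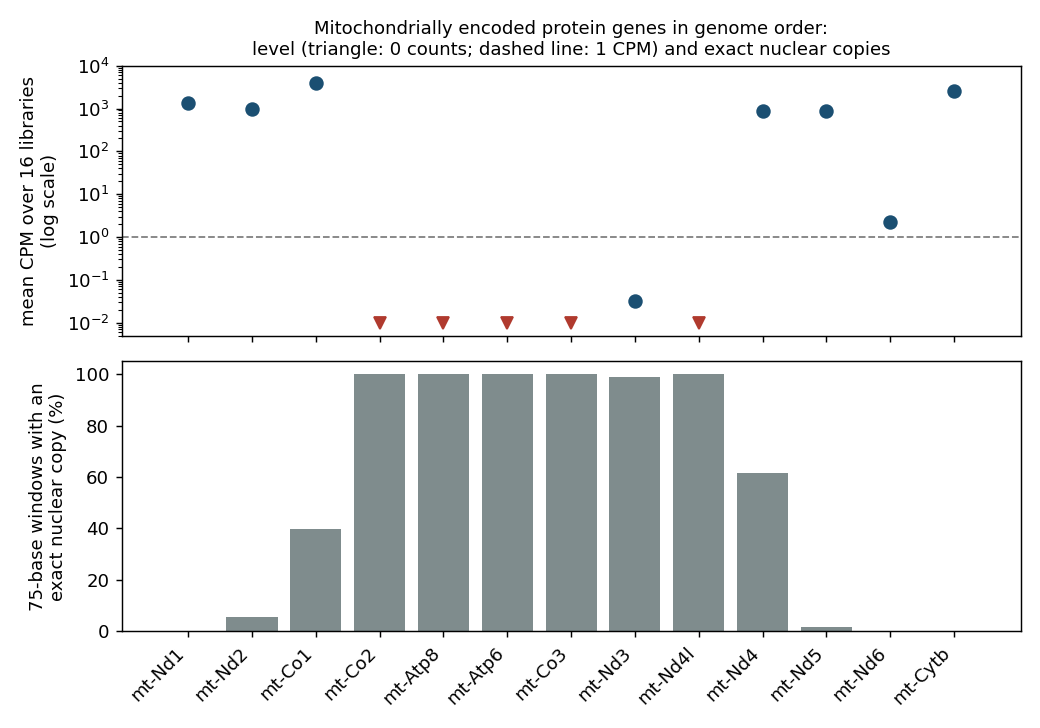
Upper panel: mean CPM over the 16 libraries (log scale) of the 13 mitochondrially encoded protein genes in genome order, with triangles at the bottom for genes with 0 counts and a dashed line at 1 CPM. Lower panel: share of each gene's 75-base windows with an exact nuclear copy (%). The 6 genes under 1 CPM are those with 98.9% to 100% of windows copied.

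The same property was read for the nuclear members, since a subunit gene that has left processed copies in the genome shares reads with them. The share of 75-base windows of the canonical transcript with an exact copy elsewhere was above 25% for 8 of 75 nuclear members (10.7%), against 4.07% of 11214 protein-coding genes tested. They were Atp5mc2 (88.0%), Atp5mc1 (76.4%), Cox7c (69.96%), Ndufs5 (69.0%), Uqcrb (40.9%), Ndufb4 (39.7%), Cox5b (30.2%) and Atp5pd (25.1%), and the median over all nuclear members was 0. The 3 members just above the level kept were Ndufb4 at 1.80 CPM, mt-Nd6 at 2.24 CPM and Ndufs5 at 2.71 CPM, 2 of them with copied shares above 25%. Just under it were Cox7a1 at 0.915 CPM, Atp5mg at 0.648 CPM with 61.8% of its windows copied, and Cox6b2 at 0.291 CPM. The levels of the genes with large copied shares are uncertain for that reason.

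In levels per length (mean CPM per kilobase of the canonical transcript), the mitochondrially encoded members stood above the nuclear ones. The median was 934 CPM per kilobase over the 7 mitochondrially encoded members and 27.4 over the 75 nuclear members. mt-Co1, the catalytic subunit of complex IV, was highest at 2568 CPM per kilobase, followed by mt-Cytb, the cytochrome b of complex III, at 2205. The complex I subunits mt-Nd1, mt-Nd2, mt-Nd4 and mt-Nd5 had 1403, 934, 641 and 483 CPM per kilobase. mt-Nd6, the complex I subunit on the other strand of the mitochondrial DNA, had 4.32 CPM per kilobase, under the nuclear median, from 459 counts in all. The gene spans chrM:13552-14070 and overlaps the end of mt-Nd5 only at chrM:13552-13565, where the reads of both genes can be told apart only by strand. How the counting treated strand is not given in the sources used here, so the low value of mt-Nd6 is not read as its expression. When the counts of the mitochondrial genes were divided by the number of windows without a copy in place of the length, mt-Co1 stood at 4484 CPM per kilobase of such window starts, mt-Cytb at 2357, mt-Nd4 at 1758, mt-Nd1 at 1521, mt-Nd2 at 1067, mt-Nd5 at 512 and mt-Nd6 at 5.04, so that mt-Nd4 moved from the fifth to the third place. These values are levels only if reads with several places were left out of the counts and reads were about as long as a window. Neither is known here, and otherwise genes with many copied windows come out too high.

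Among nuclear members the level per length followed no single order by complex. Medians were 49.1 CPM per kilobase for complex IV, 36.9 for complex III, 33.6 for complex V, 24.5 for complex II and 19.3 for complex I. The highest was Atp5f1b, the catalytic β subunit of the ATP synthase, at 183 CPM per kilobase. It was followed by Ndufa4 at 121, Atp5f1e, the ε subunit of the ATP synthase, at 114.5, Atp5f1a, the α subunit, at 111 and Cox8a, a small structural subunit of complex IV, at 109.5. Sdhd, a membrane anchor of complex II, led its complex at 41.6 CPM per kilobase, and Uqcr10, a small subunit of complex III, led complex III at 72.6. The lowest nuclear member was Ndufb2, an accessory subunit of complex I, at 1.02. These orders depended on the length used: the rank correlation with levels per merged exon length was 0.738 and with levels per longest transcript 0.749 over the same 75 genes, and Cox6a1 came first with the merged exon length. Per window without a copy the leaders changed as well: Atp5mc1 came first with 212 CPM per kilobase of such window starts, on 127 windows, before Atp5f1b with 191, Cox7c led complex IV with 154 against 147 for Cox8a, and Uqcrb led complex III with 110.5 against 87.0 for Uqcr10. This order, too, holds only if reads with several places were left out of the counts.

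Where a subunit has several isoform genes, the forms known from most tissues were the ones counted. Cox6a1 had 102 CPM per kilobase and its heart and muscle counterpart Cox6a2 had 0 counts. Cox6b1 had 83.3 CPM per kilobase against 0.484 for Cox6b2, the form known from testis. Cox7a2 had 39.1 CPM per kilobase against 2.075 for the heart and muscle form Cox7a1. Cox8a had 109.5 CPM per kilobase, while Cox8b and Cox8c had 0 counts, and Cox7b2 had none either. The c subunit of the ATP synthase rotor is encoded by a set of genes that differ in the import sequence, and Atp5mc3 stood highest at 78.9 CPM per kilobase, with Atp5mc1 at 44.1 and Atp5mc2 at 13.6, but the latter pair are the members with the largest copied shares. Per window without a copy, and under the same condition on the counting, the order of Atp5mc3 and Atp5mc1 turned. They had 85.3 against 212 CPM per kilobase of such window starts. A second annotated Atp5po gene had 0 counts.

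Short sequence motifs were looked for in the promoters of the 75 nuclear members, from 250 bases before to 50 bases after the start of the canonical transcript (GRCm39, GENCODE M39), on both strands. NRF1 and the ETS factor GABP are known regulators of respiratory chain genes. The NRF1-type core CGCANGCG was present in 21 of 75 members (28.0%), in 16.0% of 11214 tested genes and in 10.3% of 21770 promoters. The ETS core CCGGAAG was present in 11 members (14.7%) against 16.5% of the tested genes. The YY1-type motif AANATGGCG was found in 1 member (1.33%) against 3.78%, and the ERR-type motif TCAAGGTCA in 1 member (1.33%) against 0.348%. Of the motifs tied to the injections, the glucocorticoid receptor-type motif AGAACA was found in 11 members (14.7%) against 12.6% of tested genes, and the NF-κB-type motif GGAATTTCC in 0 of 75 against 0.285%. The median GC content of the members' promoters was 55.3%, and that of the tested genes 58.3%. The 120 bases before the start are shown for the member with the highest mean CPM in complex II, Sdha (chr13:74498437-74498556, minus strand), with an NRF1-type core in capitals, and in complex IV, Cox8a (chr19:7194965-7195084, minus strand), with an ETS core read on the other strand in capitals:
Sdha promoter: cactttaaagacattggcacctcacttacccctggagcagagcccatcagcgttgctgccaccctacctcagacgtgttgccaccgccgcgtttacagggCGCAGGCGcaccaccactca
Cox8a promoter: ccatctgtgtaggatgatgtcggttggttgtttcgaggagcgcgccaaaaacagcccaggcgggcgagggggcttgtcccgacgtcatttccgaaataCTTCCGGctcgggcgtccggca
The same 120 bases before Ndufa4, Uqcrc1 and Atp5f1b, the members with the highest mean CPM in complexes I, III and V, held none of the motifs, and Uqcrc1 had an NRF1-type core 21 bases after its start. A match is a description of the letters only and no binding was measured.

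The share of all counts that fell on the mitochondrially encoded members was 0.888% ± 0.220 (SD, n = 4) after PBS+PBS, 1.19% ± 0.365 after PBS+TNF, 0.872% ± 0.336 after DEX+PBS and 1.28% ± 1.33 after DEX+TNF. The nuclear members took 0.288% ± 0.0298, 0.297% ± 0.0587, 0.321% ± 0.0681 and 0.300% ± 0.135 in the same order. The groups overlapped in both shares. In replicate order 1 to 4, the mitochondrial share was 0.756%, 0.744%, 1.21% and 0.841% after PBS+PBS and 1.62%, 0.742%, 1.28% and 1.12% after PBS+TNF. It was 0.736%, 0.648%, 0.731% and 1.37% after DEX+PBS and 0.476%, 0.470%, 0.918% and 3.24% after DEX+TNF. DEX+TNF 4, the library with the high tuft and enterocyte marker counts, was the highest of all 16, and DEX+TNF 1 and 2 were the lowest.

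The log2 ratio of summed mitochondrially encoded to summed nuclear counts, which needs no scaling of the libraries, compares both genomes within a library. It was 1.60 ± 0.34 (SD, n = 4) after PBS+PBS, 1.97 ± 0.52 after PBS+TNF, 1.40 ± 0.21 after DEX+PBS and 1.69 ± 0.73 after DEX+TNF. By replicate, it was 1.63, 1.29, 2.07 and 1.43 after PBS+PBS, 2.703, 1.58, 1.99 and 1.61 after PBS+TNF, 1.27, 1.28, 1.32 and 1.71 after DEX+PBS, and 1.17, 1.15, 1.71 and 2.71 after DEX+TNF. The values overlapped in every pair of groups. The difference between PBS+TNF and PBS+PBS was 0.36 (SE 0.31), between DEX+PBS and PBS+PBS -0.21 (SE 0.20), between DEX+TNF and PBS+TNF -0.28 (SE 0.45) and between DEX+TNF and DEX+PBS 0.29 (SE 0.38), and the interaction was -0.08 (SE 0.49). No p is given, because the ratio is a score over chosen genes. Without the libraries labelled DEX+TNF 3 and 4 DEX+TNF minus PBS+TNF gave -0.81, that with DEX+PBS -0.24 in place of 0.29, and the interaction -0.60. That subset leaves DEX+TNF 1 and 2, the most alike pair of libraries within any group. Their chi-square per degree of freedom over the tested genes was 8.91, and the next lowest was 24.6 (PBS+PBS 2 and 3). Values from this subset, here and below, are therefore not read as better estimates. Without PBS+TNF 1 the difference between PBS+TNF and PBS+PBS was 0.12.

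**Figure D2:**
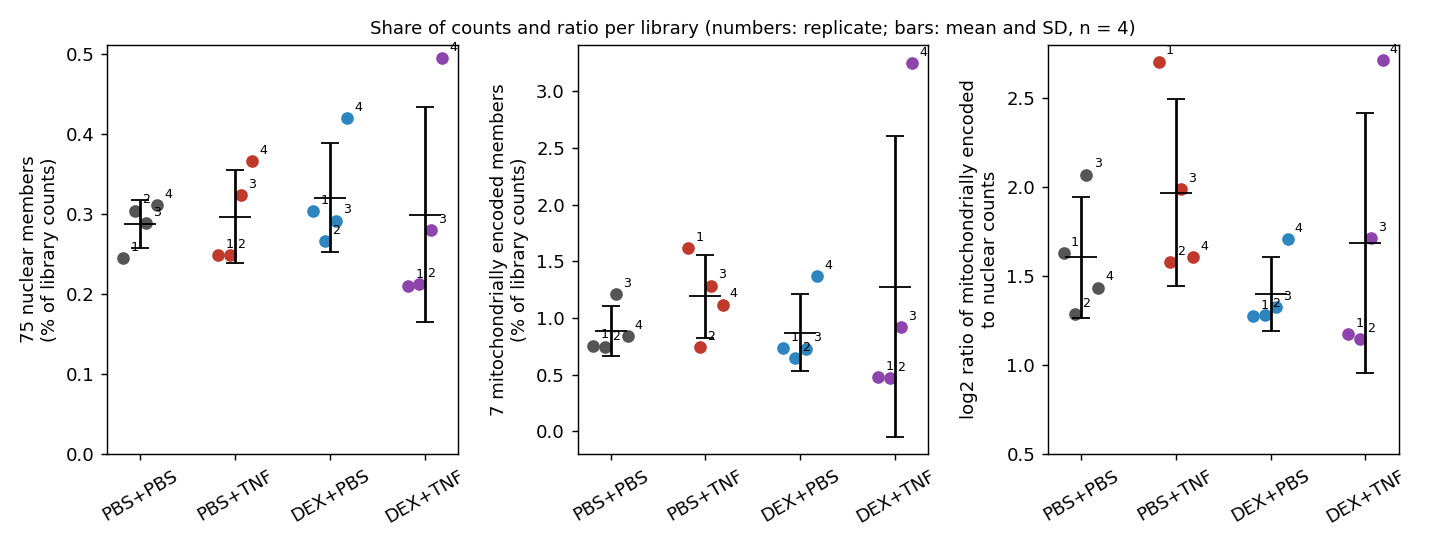
Share of library counts (%) on the 75 nuclear members (left) and on the 7 mitochondrially encoded members (middle), and the log2 ratio of both sums (right), for each library by group. Points are libraries with their replicate number, and bars are the mean and SD (n = 4). DEX+TNF 4 is highest in the middle panel at 3.24%, and DEX+TNF 1 and 2 lie lowest in all panels.

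Single genes were compared with edgeR's quasi-likelihood test on the counts, adjusted by the Benjamini-Hochberg method over all 11809 genes tested, among them all 82 members. No member passed an adjusted p of 0.05 in any of the 5 comparisons, and none had an unadjusted p under 0.05. The background was 12.5% of tested genes called for PBS+TNF against PBS+PBS, 0.00847% for DEX+PBS against PBS+PBS, 0.339% for DEX+TNF against PBS+TNF, 0.339% for DEX+TNF against DEX+PBS and 0.0% for the interaction. By direction, 7.15%, 0.00847%, 0.22% and 0.322% were called higher and 5.35%, 0.0%, 0.119% and 0.0169% lower in the pairwise comparisons, in the same order. At an unadjusted p under 0.05 the background was 26.4%, 1.91%, 11.9%, 10.4% and 5.44% in the same order. With DESeq2, too, 0 members passed, and an unadjusted p under 0.05 was reached by 1 mitochondrially encoded member (mt-Nd6, PBS+TNF against PBS+PBS, adjusted p = 0.1001) and by 1 nuclear member (Sdha, DEX+TNF against PBS+TNF, adjusted p = 0.361). The interaction had 0 calls among all genes by edgeR, 642 at an unadjusted p under 0.05, and 9 calls by DESeq2. For no member did the libraries of the compared groups fail to overlap in any pairwise comparison, while 19.5%, 1.88%, 6.38% and 4.68% of all tested genes had groups apart.

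Precision limits these counts. The median standard error of a log2 fold change was 0.44 for the nuclear members and 0.59 for the mitochondrially encoded members, against 0.33 over all tested genes, for PBS+TNF against PBS+PBS. A p that misses the threshold does not show that the levels were equal.

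The mitochondrially encoded members had their largest median difference after TNF without DEX, and it rested on 1 library. Their median log2 fold change from PBS+PBS to PBS+TNF was 0.72, above 0 in 7 of 7, beside -0.03 over all tested genes. mt-Nd6 had 1.77 (SE 0.85, edgeR adjusted p = 0.193), and the other 6 lay between 0.63 (mt-Co1) and 0.77 (mt-Nd5), with adjusted p from 0.332 to 0.593. In normalized CPM, by replicate 1 to 4, mt-Co1 (ENSMUSG00000064351, chrM:5328-6872, plus strand) stood at 2556, 2274, 3442 and 6884 after PBS+PBS, 14670, 2003, 4143 and 2716 after PBS+TNF, 2382, 2182, 3839 and 4015 after DEX+PBS, and 1570, 1625, 4745 and 8541 after DEX+TNF. A single library, PBS+TNF 1, was the highest of the series, and the other PBS+TNF libraries, at 2003 to 4143, overlapped with the range of 2274 to 6884 after PBS+PBS. The same library was the highest for 7 of 7 mitochondrially encoded members. Without it, the median of the 7 was -0.14, with 1 of 7 above 0, and mt-Co1 had -0.36 and mt-Nd6 -0.07.

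mt-Cytb (ENSMUSG00000064370, chrM:14145-15288, plus strand) followed the same libraries, at 1665, 1629, 2268 and 3784 after PBS+PBS, 9104, 1386, 2902 and 1857 after PBS+TNF, 1551, 1336, 2361 and 2131 after DEX+PBS, and 1057, 1094, 2827 and 5498 after DEX+TNF normalized CPM. mt-Nd6 (ENSMUSG00000064368, chrM:13552-14070, minus strand) had few counts, at 3.00, 0.383, 0.533 and 1.88 after PBS+PBS, 16.4, 1.57, 1.26 and 1.24 after PBS+TNF, 2.30, 4.70, 0.915 and 1.58 after DEX+PBS, and 1.21, 1.53, 2.14 and 2.39 after DEX+TNF normalized CPM, and its value in PBS+TNF 1 stood above those of all other libraries. In the other comparisons the 7 had medians of -0.29 (DEX+PBS against PBS+PBS, 1 of 7 above 0), -0.66 (DEX+TNF against PBS+TNF, 0 of 7), 0.41 (DEX+TNF against DEX+PBS, 6 of 7) and -0.32 (interaction, 0 of 7), beside -0.02, 0.03, 0.03 and 0.05 over all genes. The comparisons share their control libraries. Without PBS+TNF 1 the median for DEX+TNF against PBS+TNF turned to 0.36 and that of the interaction to 0.61. Without DEX+TNF 4 the median for DEX+TNF against DEX+PBS turned to -0.15, and without the libraries labelled DEX+TNF 3 and 4 it was -0.78, with -1.80 for DEX+TNF against PBS+TNF and -1.48 for the interaction. With library totals in place of TMM factors, the median was 0.45 after TNF and -0.05 after DEX, and turned to 0.00 for DEX+TNF against PBS+TNF and to 0.12 for the interaction.

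The nuclear members had a median log2 fold change of -0.02 from PBS+PBS to PBS+TNF, with 33 of 75 above 0, beside -0.03 over all genes. It was -0.23 with 12 of 75 above 0 for DEX+PBS against PBS+PBS, -0.35 with 13 above 0 for DEX+TNF against PBS+TNF, -0.12 with 12 above 0 for DEX+TNF against DEX+PBS, and -0.10 with 26 above 0 for the interaction. Over all tested genes 47.4%, 47.0%, 53.0% and 53.9% were above 0 in the pairwise comparisons. Leaving out 1 library turned the direction in each of them. The median for TNF without DEX was -0.49 without PBS+TNF 1 and 0.52 without PBS+PBS 4. For DEX without TNF it turned to 0.32 without PBS+PBS 4, for DEX+TNF against PBS+TNF to 0.14 without PBS+TNF 1, and for DEX+TNF against DEX+PBS to 0.06 without DEX+PBS 3. The interaction ranged from -0.64 without PBS+PBS 4 to 0.37 without PBS+TNF 1. With library totals in place of TMM factors the median turned to 0.06 after TNF, beside 0.06 over all genes, and to 0.11 after DEX, beside 0.14 over all genes. Without the libraries labelled DEX+TNF 3 and 4, the medians of the nuclear members were -0.96 against PBS+TNF and -0.66 against DEX+PBS, and no member passed the test.

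**Figure D3:**
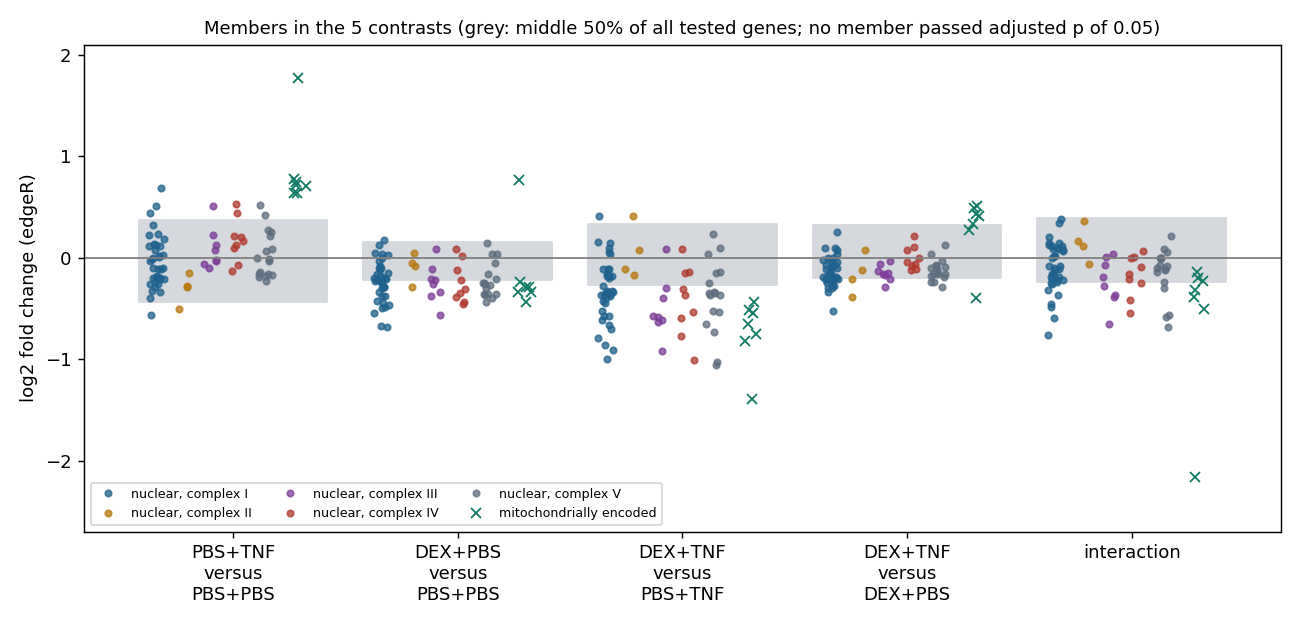
Log2 fold change of each member from the edgeR fit in the 5 comparisons. Dots are nuclear members by complex, crosses the mitochondrially encoded members, and grey blocks the middle 50% of all tested genes. The crosses lie at 0.63 and above for PBS+TNF against PBS+PBS and below 0 for DEX+TNF against PBS+TNF, and no member passed an adjusted p of 0.05.

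Complex I passes electrons from NADH to ubiquinone. Its 37 nuclear members had medians of -0.11 for TNF without DEX and -0.22 for DEX without TNF, which turned to 0.40 and 0.27 without PBS+PBS 4. Ndufa4 (ENSMUSG00000029632, chr6:11897630-11907496, minus strand, GRCm39) had the highest mean CPM among them, at 50.7, 52.6, 36.6 and 176 after PBS+PBS, 284, 39.4, 72.3 and 34.4 after PBS+TNF, 39.9, 50.6, 97.3 and 54.3 after DEX+PBS, and 35.6, 38.9, 112 and 48.3 after DEX+TNF normalized CPM. PBS+PBS 4 and PBS+TNF 1 were the highest libraries by far, and in the other libraries the groups interleaved. Its log2 fold changes were 0.44 (SE 0.63) for TNF, -0.38 (SE 0.63) for DEX and -0.86 (SE 0.63, edgeR adjusted p = 0.636) for DEX+TNF against PBS+TNF. Without PBS+TNF 1 the first was -0.69 and the last 0.29, without PBS+PBS 4 the second was 0.37, and without the libraries labelled DEX+TNF 3 and 4 the last was -1.52 (edgeR adjusted p = 0.545).

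Ndufs1 (ENSMUSG00000025968, chr1:63182058-63216236, minus strand), the largest iron-sulphur subunit of complex I, varied less across libraries, at 23.0, 23.4, 23.3 and 26.9 after PBS+PBS, 25.4, 22.2, 22.1 and 27.4 after PBS+TNF, 21.5, 22.7, 22.8 and 27.1 after DEX+PBS, and 21.9, 17.9, 31.1 and 29.8 after DEX+TNF normalized CPM. All groups overlapped in a narrow range, and PBS+TNF 1 did not stand apart. Among members with at least 5 CPM, Ndufs7, another iron-sulphur subunit, had one of the largest negative differences after TNF, -0.40 (SE 0.29, adjusted p = 0.427), and 0.41 (SE 0.29, adjusted p = 0.626) for DEX+TNF against PBS+TNF, which turned to -0.17 (adjusted p = 0.820) without the libraries labelled DEX+TNF 3 and 4. Ndufv1, the subunit that binds NADH, had 0.18 (SE 0.21) after DEX and Ndufs4, an accessory subunit, -0.68 (SE 0.55), both with an adjusted p of 1.0, and the value of Ndufs4 turned to 0.15 without PBS+PBS 4. For DEX+TNF against DEX+PBS, Ndufb3 had 0.26 (SE 0.48) and Ndufa13 -0.34 (SE 0.29). Without the libraries labelled DEX+TNF 3 and 4 they had -0.63 and -0.67 (edgeR adjusted p = 0.508 and 0.236), and Ndufb3 turned to -0.17 without DEX+TNF 3 alone.

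Complex II oxidizes succinate and belongs both to the respiratory chain and to the TCA cycle. Sdha (ENSMUSG00000021577, chr13:74469359-74498436, minus strand), its flavoprotein subunit, stood at 100, 107, 93.9 and 67.1 after PBS+PBS, 70.6, 72.8, 70.3 and 87.8 after PBS+TNF, 96.9, 91.5, 97.8 and 95.3 after DEX+PBS, and 93.5, 92.9, 77.4 and 137 after DEX+TNF normalized CPM. DEX+TNF 4 was the highest library, PBS+PBS 4 the lowest, and 3 of the 4 PBS+TNF libraries lay just above the lowest, while PBS+TNF 4 fell within the range of DEX+TNF. Its log2 fold change for DEX+TNF against PBS+TNF was 0.41 (SE 0.21, edgeR adjusted p = 0.452), or 0.31 (adjusted p = 0.588) without the libraries labelled DEX+TNF 3 and 4, and after TNF without DEX it was -0.29 (SE 0.21, adjusted p = 0.414). Sdhd had -0.51 (SE 0.49) after TNF and -0.39 (SE 0.49) for DEX+TNF against DEX+PBS, the latter -1.33 (adjusted p = 0.151) without the libraries labelled DEX+TNF 3 and 4. All 4 members of complex II had negative values after TNF without DEX, with a median of -0.28. Without PBS+PBS 4, 2 of the 4 were above 0, Sdhd among them at 0.14, and the median was 0.05.

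Complex III hands electrons from ubiquinol to cytochrome c. Uqcrc1 (ENSMUSG00000025651, chr9:108765701-108778710, plus strand), one of its core proteins, stood at 43.0, 52.6, 47.6 and 91.1 after PBS+PBS, 66.4, 39.5, 59.8 and 63.6 after PBS+TNF, 52.8, 57.9, 68.4 and 69.3 after DEX+PBS, and 42.7, 54.2, 67.7 and 78.9 after DEX+TNF normalized CPM. PBS+PBS 4 was the highest and PBS+TNF 2 the lowest, and every group spanned the middle of this range. Its log2 fold changes lay between -0.03 and 0.09 in the pairwise comparisons, with standard errors of 0.26. Without the libraries labelled DEX+TNF 3 and 4 it had -0.24 against PBS+TNF and -0.36 against DEX+PBS (edgeR adjusted p = 0.746 and 0.494). Uqcr10 had -0.56 (SE 0.55) after DEX, which turned to 0.31 without PBS+PBS 4. Uqcrq, a small accessory subunit, had -0.66 (SE 0.76) for the interaction, which turned to 0.16 without PBS+TNF 1 and was -1.16 (edgeR adjusted p = 0.972) without the libraries labelled DEX+TNF 3 and 4.

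Complex IV passes the electrons to oxygen. Cox8a (ENSMUSG00000035885, chr19:7192515-7194997, minus strand) stood at 45.1, 58.7, 44.5 and 97.4 after PBS+PBS, 74.5, 40.2, 57.8 and 52.5 after PBS+TNF, 62.8, 51.3, 72.5 and 73.0 after DEX+PBS, and 45.4, 52.2, 64.5 and 76.6 after DEX+TNF normalized CPM, highest in PBS+PBS 4 and lowest in PBS+TNF 2. Its pairwise log2 fold changes lay between -0.13 and 0.09 with a standard error of 0.27. Without the libraries labelled DEX+TNF 3 and 4 they were -0.20 against PBS+TNF and -0.41 against DEX+PBS (edgeR adjusted p = 0.800 and 0.455). Cox7b had the largest positive difference of the nuclear members with at least 5 CPM after TNF, 0.53 (SE 0.59, adjusted p = 0.635). It was -0.54 without PBS+TNF 1 and 1.30 without PBS+PBS 4. Cox6c had 0.21 (SE 0.53) for DEX+TNF against DEX+PBS, which turned to -0.07 without DEX+TNF 3 and to -0.63 (adjusted p = 0.590) without the libraries labelled DEX+TNF 3 and 4. The median of the 9 nuclear members of complex IV was 0.17 after TNF, with 7 of 9 above 0, while their mitochondrially encoded partner mt-Co1 had 0.63 (SE 0.64). Without PBS+TNF 1, 0 of the 9 were above 0 and the median was -0.38, and without PBS+PBS 4 it was 0.81 with 9 of 9 above 0.

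Complex V holds the most abundant nuclear members. Atp5f1b (ENSMUSG00000025393, chr10:127919132-127926261, plus strand) stood at 295, 355, 272 and 511 after PBS+PBS, 360, 245, 316 and 338 after PBS+TNF, 354, 293, 429 and 394 after DEX+PBS, and 250, 268, 335 and 438 after DEX+TNF normalized CPM, and the groups overlapped. Its log2 fold changes were -0.19 for TNF, 0.04 for DEX, 0.04 for DEX+TNF against PBS+TNF and -0.19 for DEX+TNF against DEX+PBS, each with a standard error of 0.26. Without the libraries labelled DEX+TNF 3 and 4 the last pair became -0.27 and -0.50 (edgeR adjusted p = 0.692 and 0.295). Atp5f1e and Atp5mk, both short proteins of the complex, had the largest negative values of the nuclear members with at least 5 CPM for DEX+TNF against PBS+TNF, -1.03 (SE 0.65, adjusted p = 0.574) and -1.05 (SE 0.61, adjusted p = 0.525). Without PBS+TNF 1 they had 0.14 and -0.19, and without the libraries labelled DEX+TNF 3 and 4 -1.45 and -1.83 (edgeR adjusted p = 0.573 and 0.491). Atp5mk stood at 12.2, 9.44, 8.64 and 40.5 after PBS+PBS, 60.2, 11.9, 21.1 and 9.20 after PBS+TNF, 10.1, 9.28, 23.4 and 11.7 after DEX+PBS, and 6.45, 7.59, 22.5 and 12.01 after DEX+TNF normalized CPM, so that PBS+TNF 1 was the highest library and DEX+TNF 1 and 2 the lowest. Atp5f1d, the δ subunit, had 0.14 (SE 0.25) after DEX. The 3 c subunit genes had 0.28 (Atp5mc1), -0.14 (Atp5mc2) and -0.01 (Atp5mc3) after TNF, and without PBS+TNF 1 -0.23, -0.35 and -0.54.

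Libraries of the same group differed widely, and the members moved together in them. On the TMM scale PBS+PBS 4 or PBS+TNF 1 was the highest library for 69 of 75 nuclear members, 41 in PBS+PBS 4 and 28 in PBS+TNF 1. The exceptions were Ndufs1 (highest in DEX+TNF 3), Ndufa10, Atp5f1d and Sdha (DEX+TNF 4), and Ndufs5 and Ndufv1 (DEX+PBS 3). Counted against each gene's own mean over the 16 libraries, 74 nuclear members were above it in PBS+PBS 4, 71 in PBS+TNF 1, 74 in DEX+PBS 3 and 70 in DEX+TNF 3. In PBS+TNF 2, none was, and in DEX+TNF 1 and DEX+TNF 2 there were 2 each. No such counts over all tested genes are given, so these are not read as particular to the members. The median log2 deviation of the nuclear members was 1.33 in PBS+PBS 4, 1.22 in PBS+TNF 1, 0.50 in DEX+PBS 3 and 0.51 in DEX+TNF 3, and lowest at -0.65 in DEX+TNF 1.

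These 4 libraries also had the largest shares of α-defensin counts, 54.5%, 59.3%, 49.3% and 47.5%, against 32.2% to 40.9% in the other 12, and the lowest TMM factors, 0.503, 0.418, 0.740 and 0.756 against 1.02 and above. As a plain share of counts, PBS+PBS 4 held 0.312% and PBS+TNF 1 0.248% of nuclear members, both inside the range of 0.211% to 0.496% over all libraries. The height of the nuclear members in these libraries is thus seen relative to the genes that set the TMM factor and not in the share of all counts. The 7 mitochondrially encoded members stood high in a partly different set of libraries, with median log2 deviations of 2.05 in PBS+TNF 1, 1.14 in DEX+TNF 4 and 0.63 in PBS+PBS 4. In DEX+TNF 4 the nuclear members had a median deviation of only 0.09, and that library held the tuft, enterocyte and stem marker sums of 1149, 1726 and 2409 CPM, the highest of the series. The part of these cell markers and of the α-defensin share in the levels of the members was not tested.

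**Figure D4:**
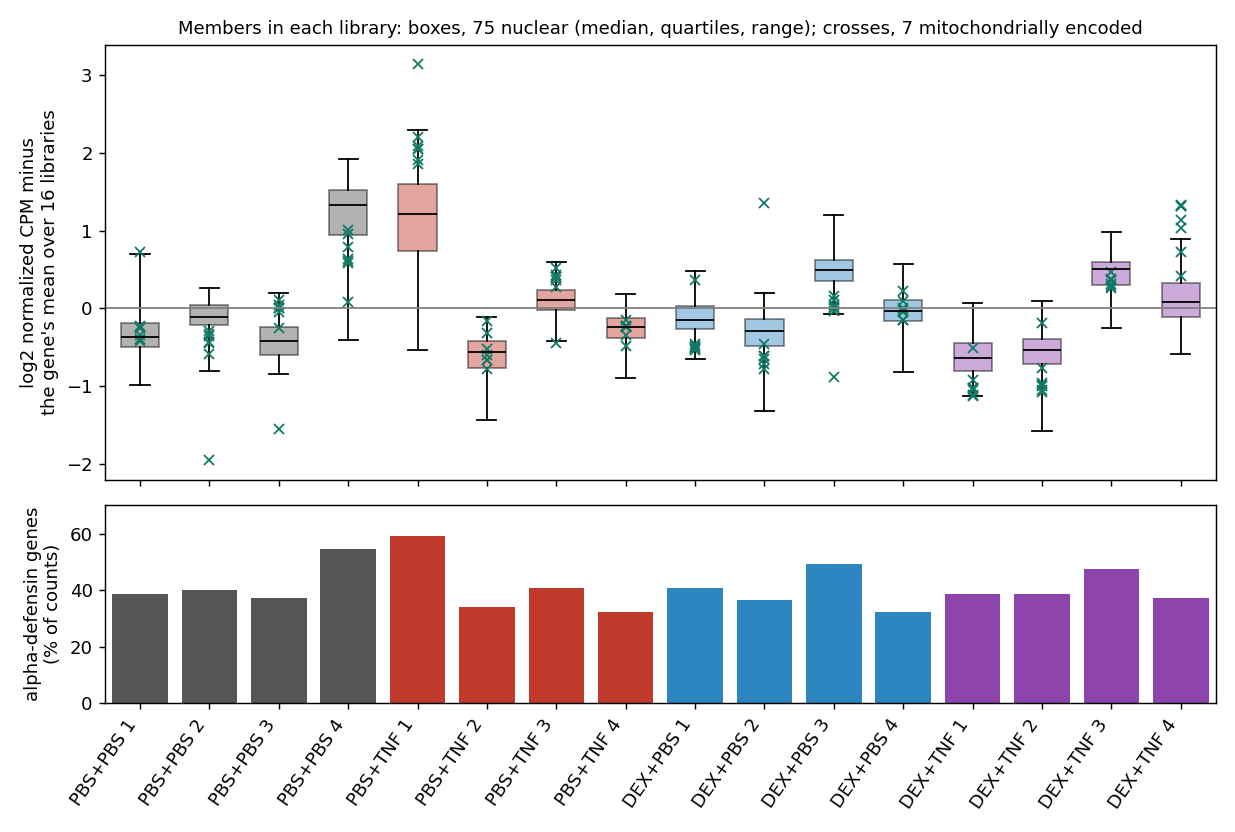
Upper panel: log2 normalized CPM of each member minus its own mean over the 16 libraries. Boxes give the median, quartiles and range of the 75 nuclear members and crosses the 7 mitochondrially encoded members. Lower panel: share of counts on α-defensin genes (%). PBS+PBS 4 and PBS+TNF 1 have the highest boxes (medians 1.33 and 1.22) and the highest bars (54.5% and 59.3%), while DEX+TNF 4 has high crosses (median 1.14) over a box near 0.

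The members also differed in how widely they spread between libraries of the same group. The median SD of log2 CPM within groups was 0.68 for the nuclear members, from 0.22 to 1.00, 0.90 for the mitochondrially encoded members and 0.48 over all tested genes. The steadiest were Ndufs1 (0.22), Sdha (0.24), Atp5f1a (0.26), Ndufv1 (0.27), Ndufa10 (0.31) and Atp5f1b (0.32). The widest were Atp5f1e (1.00) and Ndufa4 (0.97). This spread ran with the length of the protein: across the 75 nuclear members the Spearman correlation with coding length was -0.643, against -0.105 across 11214 tested protein-coding genes. These sets differ in length, with medians of 432 and 1401 coding bases. Other genes as short or as highly expressed as the members were not looked at, so the correlation is not read as particular to the members. The points share the same 16 libraries, and genes are not independent replicates, so no p is given. The 25 shortest members (156 to 339 coding bases) had a median SD of 0.84, the middle 25 one of 0.66, and the 25 longest (525 to 2181 bases) one of 0.55. Without PBS+PBS 4, PBS+TNF 1 and DEX+TNF 4 the correlation was -0.580 for the members and -0.0506 for the tested genes.

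**Figure D5:**
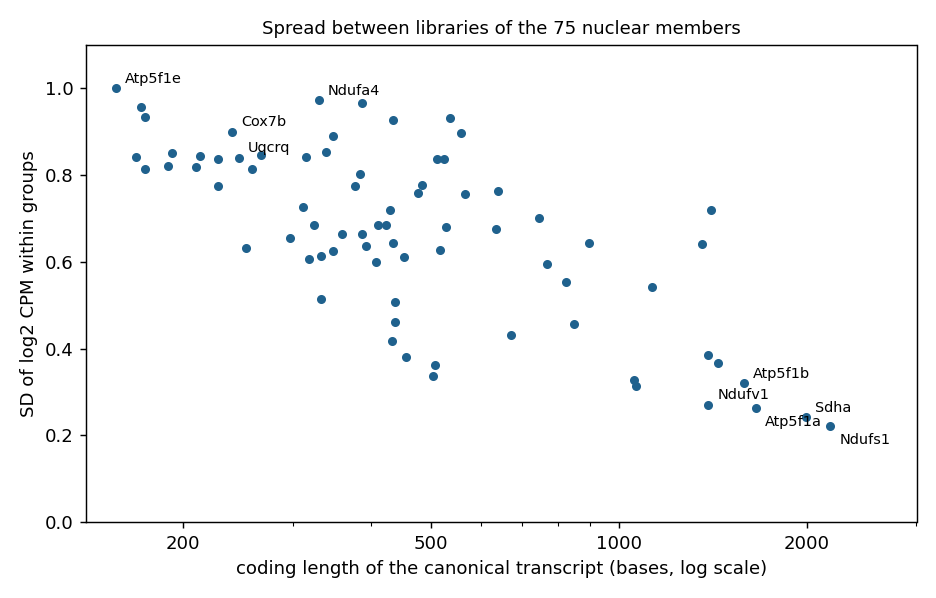
SD of log2 CPM within groups (vertical axis) against the coding length of the canonical transcript in bases (horizontal axis, log scale) for the 75 nuclear members. The short Atp5f1e lies at 1.00 and the long Ndufs1 at 0.22.

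Genes around oxidative phosphorylation were followed in lists drawn up with earlier results of these data known. The 6 tested subunit genes outside the symbol rule, among them Cyc1 (cytochrome c1), Cycs (cytochrome c) and Cox4i1, the major isoform of the largest nuclear subunit of complex IV with a mean of 94.7 CPM, had 0 calls in all 5 comparisons by edgeR and by DESeq2, and 0 had an unadjusted p under 0.05. Cyc1 had -0.04 and Cox4i1 0.01 after TNF without DEX (adjusted p = 0.966 and 0.993). The carriers and uncouplers of the inner membrane (19 tested), mitochondrial antioxidant and stress genes (25) and genes of fission, fusion and mitophagy (23) also had 0 calls in each comparison by edgeR. After TNF without DEX, 7, 1 and 2 of them had an unadjusted p under 0.05, against 26.4% of all tested genes. DESeq2 called 3, 0 and 1, against 2061 of all 11809 tested genes. The medians were -0.05, -0.11 and 0.01.

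Single genes that serve the complexes did pass the test after TNF without DEX, in each case 1 of its list against 12.5% called over all genes. Sdhaf1, an assembly factor of complex II, was the only one of 49 assembly factors called. It had 6.76, 9.89, 5.71 and 20.1 normalized CPM after PBS+PBS and 63.9, 21.2, 46.9 and 27.8 after PBS+TNF, groups that do not overlap, and rose by 1.92 on the log2 scale (SE 0.49, edgeR adjusted p = 0.0155). Omitting either PBS+PBS 1 or PBS+PBS 3 ended this call (highest adjusted p = 0.0566). Gabpb1, a subunit of the regulator GABP, rose by 1.35 (SE 0.30, adjusted p = 0.00809), the only call of 18 regulators of mitochondrial biogenesis. Pde12, a mitochondrial enzyme that trims poly(A) tails, rose by 1.12 (SE 0.27, adjusted p = 0.0116), 1 of 21 genes of mitochondrial RNA processing. Mgme1, a nuclease of mitochondrial DNA maintenance, fell by 1.36 (SE 0.40, adjusted p = 0.0347), 1 of 19, and this call was lost without any one of PBS+PBS 1, 2, 3 and 4 and PBS+TNF 1, 3 and 4. With library totals in place of TMM factors, where 228 genes were called in place of 1476, Gabpb1 (adjusted p = 0.0781), Pde12 (0.198) and Mgme1 (0.446) lost their calls. DESeq2 called 3 assembly factors, 5 regulators, 2 genes of RNA processing and 3 of DNA maintenance in this comparison. Over all 11809 tested genes it called 2061, so these counts are not read as a result about the lists. Markers of other cells moved in it too, in both directions. By edgeR, 2 of 12 tested enterocyte markers (median -1.38) and 3 of 7 stem cell markers (median -1.03) were called lower, against 5.35% of all genes. Called higher were 1 of 4 tested enteroendocrine markers (Tac1) and the 1 tested stromal marker (Vwf), against 7.15% of all genes. The 6 tested tuft cell markers had a median of 1.67, with 0 called. The part of these markers in the calls above was not tested.

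Of 18 TCA cycle genes, 3 passed in DESeq2 after TNF without DEX, against 2061 of all 11809 tested genes. In edgeR, where 12.5% of all genes were called, Pdha1 alone passed. It encodes the catalytic E1α subunit of pyruvate dehydrogenase, the entry of pyruvate into the cycle. It had 149, 150.4, 141 and 136.5 normalized CPM after PBS+PBS and 85.5, 94.8, 82.2 and 84.2 after PBS+TNF, and fell by 0.74 (SE 0.18, adjusted p = 0.0112), a call lost with library totals (adjusted p = 0.595) and without a filter on low counts. After DEX+PBS it had 167, 153, 143 and 137 normalized CPM, and after DEX+TNF 99.6, 99.0, 131 and 129, with the libraries labelled DEX+TNF 3 and 4 nearer to DEX+PBS than the others.

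The 6 kinases and phosphatases that switch pyruvate dehydrogenase off and on had 4 calls after TNF without DEX, 1 higher and 3 lower, against 7.15% and 5.35% of all genes. The phosphatase gene Pdp1 rose by 1.96 (SE 0.44, adjusted p = 0.00799), from 5.05, 5.61, 3.57 and 9.54 to 36.2, 20.3, 19.5 and 16.2 normalized CPM, and kept the call in all 30 alternatives. The kinase gene Pdk1 fell by 1.02 (SE 0.25, adjusted p = 0.0118), a call lost with library totals (adjusted p = 0.372). The phosphatase gene Pdp2 fell by 0.88 (SE 0.23, adjusted p = 0.0202) and the kinase gene Pdk2 by 1.00 (SE 0.27, adjusted p = 0.0227), where the groups overlapped. Both calls were lost without any one of PBS+PBS 1, PBS+PBS 2, PBS+TNF 1 and PBS+TNF 3, and that of Pdk2 also without PBS+PBS 3, and with library totals their adjusted p was 0.655 and 0.589. Fitting only the PBS+PBS and PBS+TNF libraries ended the call of Pdk2, and leaving out the filter on low counts that of Pdp2. For DEX+TNF against PBS+TNF, where 0.22% of genes were called higher, Pdk4, a kinase gene known to respond to glucocorticoids, rose by 4.43 (SE 0.81, adjusted p = 0.0295), from 0.192, 1.63, 0.913 and 0.495 to 3.95, 4.36, 26.5 and 41.2 normalized CPM. Its call was lost without DEX+TNF 3, DEX+TNF 4 or any one of the PBS+TNF libraries, and without the libraries labelled DEX+TNF 3 and 4 together the adjusted p was 0.333. Pdk4 stood at 7.40, 7.11, 14.3 and 23.3 normalized CPM after DEX+PBS. In the same comparison of DEX+TNF with PBS+TNF the 12 tested enterocyte markers had a median of 1.80, with 0 called by edgeR, 5 at an unadjusted p under 0.05 and 1 called by DESeq2. The 7 stem cell markers had a median of 0.59, with 0 called by edgeR or DESeq2 and 3 at an unadjusted p under 0.05. Over all 11809 tested genes, 11.9% had an unadjusted p under 0.05 in edgeR, and DESeq2 called 274. Pdk4 was highest in DEX+TNF 4, the library with the highest sums of both marker lists, and their part in its call was not tested.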

How the data were processed

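Total RNA (Aurum kit) of sorted Paneth cells from individual mice was turned into TruSeq Stranded mRNA libraries. The authors deposited a table of unnormalized counts of reads for each Ensembl identifier. The submitters' processing notes name FastQC 0.12, STAR 2.7.10a, DESeq2 and mm39, while the study's methods name STAR 2.7.10b with GENCODE M30 on GRCm39. The counting program and its treatment of strand and of reads with several places are not given in the sources used here. The members, the other gene lists and the tests were chosen with earlier results of these data known.

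Identifiers were matched to GENCODE M39, and 665 identifiers with 0.00519% of counts had no match. Genes passing edgeR's filterByExpr (11809 of 55414) were fitted in edgeR 4.0.16 (limma 3.58.1, R 4.3.3) over all 16 libraries with TMM factors and a robust quasi-likelihood fit, with Benjamini-Hochberg adjustment and a threshold of 0.05. The procedure was tested on simulated data. Log2 CPM for the spread used a prior count of 2. DESeq2 1.42.0, other scalings and filters and the omission of each library were alternatives. Python 3.11.15, pandas 2.3.3, NumPy 2.4.6 and SciPy 1.17.1 served for the remaining steps. Levels per length used the canonical transcript, in place of the planned merged exon length, a choice made after seeing the data. Copies were sought as exact matches of windows of 75 bases on both strands of GRCm39. Members were named by rule: all mitochondrially encoded genes, the nuclear member of each complex with the highest mean CPM, the 2 largest differences in each direction per comparison among members with at least 5 CPM, those nearest to the limit of 1 CPM, isoform groups, and up to 3 called genes per direction of each other list. Ndufs1, Atp5f1a, Ndufa10 and the other genes named for their spread or their highest library were chosen after their values were seen.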

Additional observations from a re-analysis of the deposited data

Results flagged for a closer look

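In 4 of 20 checks, each of 1 quantity in 1 group of 4 libraries, a single library lay far from the other 3, with a gap to its nearest neighbour relative to the whole range of the group above Dixon's 95% critical value. Chance gives this in about 1 in 20 groups. The mitochondrial share of counts in DEX+PBS 4 (1.37%, the other DEX+PBS libraries 0.648% to 0.736%) had a gap of 0.879 of the range. In DEX+TNF 4 (3.24%, the others 0.470% to 0.918%) it was 0.839. The log2 ratio of mitochondrially encoded to nuclear counts in DEX+PBS 4 (1.71, the others 1.27 to 1.32) had a gap of 0.885. The summed normalized CPM of the nuclear members in PBS+PBS 4 (6189, the others 2204 to 2766) had a gap of 0.859. Among single nuclear members such a library was present for 48 of 75 in PBS+PBS, 13 in PBS+TNF, 13 in DEX+PBS and 5 in DEX+TNF. For the 7 mitochondrially encoded members the numbers were 2, 3, 0 and 0. The members of a group share the same 4 libraries, and no such count over all tested genes is given. These numbers are therefore not read as a result about the members.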

How the results depend on the processing

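None of the 82 members was called under any of the 30 alternatives (lowest adjusted p = 0.0656, without PBS+PBS replicate 4). The median fold changes of the mitochondrially encoded members moved most. After TNF the median was -0.14 without PBS+TNF 1 and -0.13 without PBS+TNF 1 and DEX+TNF 4. For DEX+TNF against PBS+TNF it was 0.36 without PBS+TNF 1, 0.33 without PBS+PBS 4 and PBS+TNF 1, and -1.80 without DEX+TNF 3 and 4. For DEX+TNF against DEX+PBS it was -0.78, and for the interaction -1.48, without DEX+TNF 3 and 4, and the interaction was 0.61 without PBS+TNF 1. Without DEX+TNF 3 and 4 the log2 ratio of both genomes gave -0.81, -0.24 and -0.60 in these 3 comparisons. Alternatives that leave out several libraries were added after seeing the data. The one without DEX+TNF 3 and 4 leaves only the close pair DEX+TNF 1 and 2 in that group.

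Leaving out each library in turn, the medians for TNF, DEX, DEX+TNF against PBS+TNF, DEX+TNF against DEX+PBS and the interaction ran from -0.14 to 1.02, -0.46 to -0.02, -1.20 to 0.36, -0.15 to 0.67 and -0.86 to 0.61 for the mitochondrially encoded members. For the nuclear members they ran from -0.49 to 0.52, -0.47 to 0.32, -0.62 to 0.14, -0.38 to 0.06 and -0.64 to 0.37. The other 695 alternative values of the main results stayed within the spread between libraries or kept their count. They include the nuclear medians above that changed direction, so staying within this spread does not mean that a direction held. Library totals gave 228 calls over all genes after TNF and DESeq2 2061, against 1476. Upper-quartile factors moved the median of all genes to -0.15 after TNF. Counts of calls over all genes in the other comparisons with DESeq2 were 7, 274, 259 and 9.

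Replicate numbers were not taken as pairs, since not every correlation of same-numbered libraries was over 0.1: 12 of 24 were (median 0.115, from -0.365 to 0.504), among them all 6 of replicate 2, against 20 of 72 between differently numbered libraries (median -0.06). Of the 16 libraries, 9 correlated best with their own number, a hint from the data and not the design. The rule used is strict and does not decide whether the numbers mark pairs. With the replicate block the nuclear medians were -0.00, -0.20, -0.36, -0.15 and -0.16, the mitochondrial ones 0.67, -0.25, -0.63, 0.22 and -0.42, and no member was called. Over all genes the block gave 1482, 1, 16, 0 and 0 calls, against 1476, 1, 40, 40 and 0 without it.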
